A study of Mus musculus with 11 samples.

Results

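The genes of major histocompatibility complex (MHC) class II antigen presentation were followed through the adventitia of the mouse abdominal aorta, the connective tissue coat around the artery. The set comprised the classical class II chains H2-Aa, H2-Ab1 and H2-Eb1, the invariant chain Cd74, the peptide-loading chains H2-DMa, H2-DMb1, H2-Oa and H2-Ob, and the class II transactivator Ciita. A probe set counted as a member where the platform annotation gave it a single gene symbol and that symbol was in the set. This rule found 11 of the 22626 probe sets on the array, for 7 of the 9 genes (the array held 12393 genes with a probe set of their own). H2-DMb1 and H2-Ob appeared only on 3 probe sets shared with other genes and were not analysed here.

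Gene expression was read on 11 Affymetrix arrays of male mice aged 78 weeks on normal chow. In 4 samples the adventitia held lymphocyte aggregates known as artery tertiary lymphoid organs (ATLO), and in 4 it came from outside the lesion area. Both groups were B6.129P2-Apoe<tm1Unc>/J mice, which lack apolipoprotein E, and each sample pooled 200 laser-cut sections of 10 micrometres. The other 3 samples were adventitia of wild-type C57BL mice. For both Apoe-deficient groups, RNA was prepared with phenol, chloroform and an RNeasy Micro kit, followed by transcription in vitro for 68 h. Wild-type RNA went through an RNeasy Lipid Tissue kit and 24 h of transcription, so that genotype and preparation cannot be told apart in a comparison with wild type. The series' design text calls the second group mice without lesions, whereas its tissue label places it outside the lesion area, and the letters PNS in the wild-type titles are not explained. The labels do not state whether the arrays of one group stand for different animals, and p-values therefore measure the spread between samples, which may be technical. The aortas were removed together with para-aortic lymph nodes and fat.

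Class II molecules present peptides from the endosome to CD4 T cells, and are made chiefly by B cells, dendritic cells and activated macrophages. An alpha and a beta chain, encoded by H2-Aa and H2-Ab1 for I-A and by H2-Ea and H2-Eb1 for I-E, assemble around the invariant chain, which blocks the peptide groove until proteases cut it down. H2-DM then exchanges the remaining fragment for a peptide, H2-O restrains H2-DM and is made mainly by B cells, and Ciita, which does not bind DNA itself, switches on the whole set through factors bound at a conserved promoter module.

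That module is shown for 3 members because it is the sequence feature through which class II genes are known to be regulated together. The 250 bases upstream of each start site in the RefSeq promoter table (GRCm38.p6) were searched on both strands for the letters GNAAC, the core of the X box, followed after 15 to 30 bases by TGATTGG, the core of the Y box. The table held 7 promoters of 6 members, and H2-Ab1, Cd74 and Ciita were not matched. Both cores were found in 5 of the 6 members, against 130 (0.396%) of all 32851 promoters in the table, while TGATTGG alone was found in 2375 (7.23%). The letters were chosen after the promoters were seen, so this contrast is a description and not a test of enrichment. The 120 bases before the start site are printed 5′ to 3′ for the 3 measured members with a match, with the X and Y cores in capitals.
H2-Oa, chr17:34092259-34092378, plus strand: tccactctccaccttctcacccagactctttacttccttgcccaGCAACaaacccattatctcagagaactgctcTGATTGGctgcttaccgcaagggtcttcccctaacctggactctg
H2-Aa, chr17:34287824-34287943, minus strand: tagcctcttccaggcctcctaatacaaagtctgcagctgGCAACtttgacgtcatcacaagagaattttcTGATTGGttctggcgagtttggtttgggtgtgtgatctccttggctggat
H2-Eb1, chr17:34305747-34305866, plus strand: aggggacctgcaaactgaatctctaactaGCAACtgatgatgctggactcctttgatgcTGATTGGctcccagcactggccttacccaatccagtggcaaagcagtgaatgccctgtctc

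Between the cores lay 26 bases in H2-Oa, 26 in H2-Aa and 25 in H2-Eb1, and the Y core began 45, 50 and 61 bases before the start. The promoters of H2-DMb1 and H2-Ob held the same arrangement, with 26 and 23 bases between the cores. The Y core, and so the arrangement, was not found in either of the promoters listed for H2-DMa. This says only that the letters TGATTGG are absent from those windows, since the X core was not searched for alone.

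Signals are the authors' array intensities, on a linear scale and scaled alike on every array. A signal depends on the probes, so levels are compared between samples and not between probe sets. Log2 changes come from limma, fitted to all 11 arrays, with their standard errors, and a change was called where the Benjamini-Hochberg adjusted p over all 14988 probe sets tested was under 0.05. The genotype labels were checked on Apoe, which was read at 86.9 to 150.2 on ATLO arrays and 45.9 to 179.7 on outside-lesion arrays, against 11969 to 13164 on wild-type arrays. All 7 tested markers of adventitial fibroblasts were above the floor of 35.1 on every array. H2-Ea is annotated by RefSeq as a transcribed pseudogene in C57BL/6J. Its 3 probe sets, none of which was tested, read between 2.6 and 53.3 on ATLO arrays, between 2.2 and 73 on outside-lesion arrays and between 3.5 and 57.9 on wild-type arrays.

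Class II genes were high in ATLO adventitia and showed no called difference between outside-lesion and wild-type adventitia. Of the 10 member probe sets that passed the filter on low signals, 9 rose in ATLO against outside-lesion adventitia, where 17.9% of all tested probe sets rose and 13.9% fell (31.9% changed in either direction). Against wild type all 10 rose in ATLO, where 13.4% of all tested probe sets rose and 13.4% fell (26.8% in either direction). None of the 10 changed in outside-lesion adventitia against wild type, a comparison in which 1.72% of probe sets rose and 1.54% fell (3.26% in either direction). The median log2 change of the 10 was 2.15 in ATLO against outside-lesion adventitia (0.10 over all tested probe sets), 1.99 in ATLO against wild type (-0.053 over all) and -0.26 in outside-lesion adventitia against wild type (-0.11 over all). With 1 representing probe set for each gene, 6 of 7 members rose in ATLO against outside-lesion adventitia (19.8% of 9055 genes rose and 14.9% fell), 7 of 7 rose against wild type (13.4% and 14%) and 0 of 7 changed outside the lesion against wild type (1.4% and 1.68%). The first 2 comparisons share the ATLO arrays, so they are not independent. In such bulk tissue, fewer cells of a type and less RNA per cell cannot be told apart.

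**Figure D1:**
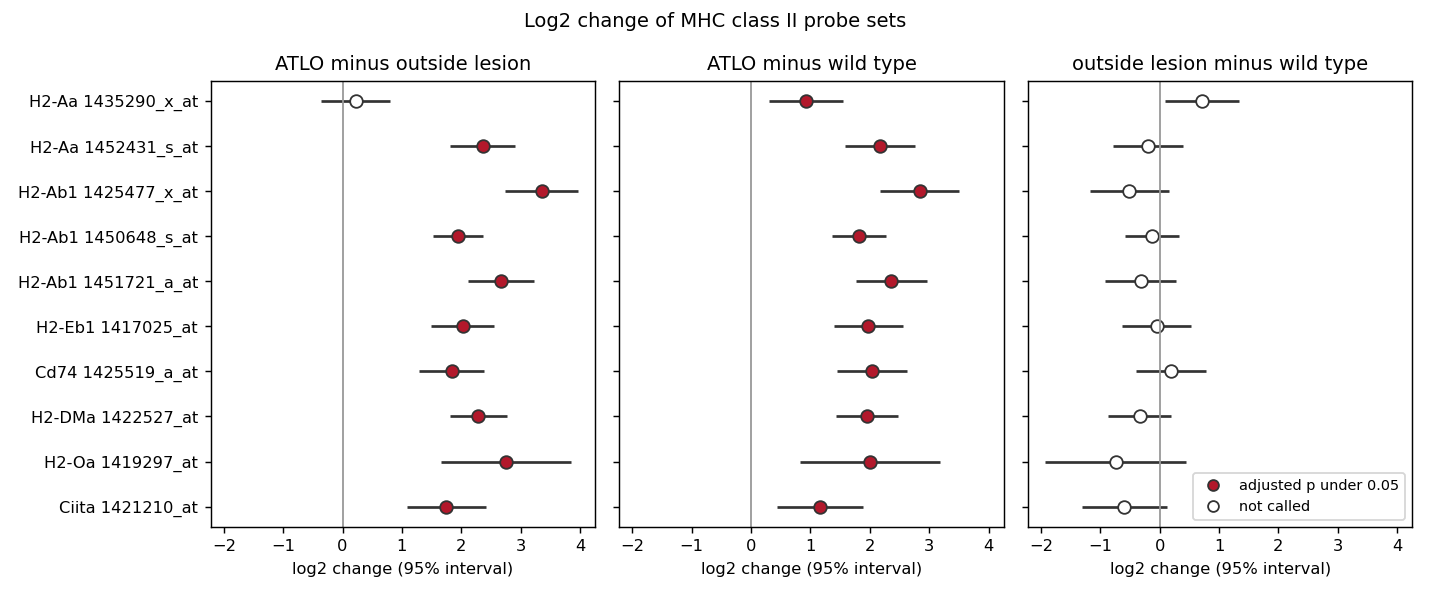
Log2 change (x axis) of the 10 tested class II probe sets in 3 comparisons, with 95% intervals, filled where the adjusted p was under 0.05. All but the first H2-Aa probe set lie above 1.7 in ATLO against outside-lesion adventitia, and none is filled in outside-lesion adventitia against wild type.

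H2-Ab1, the beta chain of I-A, was read by 3 probe sets, all of which rose in ATLO. The probe set of highest mean, 1450648_s_at, had signals of 6417, 7251, 8555 and 8099 on the ATLO arrays, 1935, 1530.0, 1850.3 and 2660.0 on the outside-lesion arrays, and 1631, 2679.7 and 2219.7 on the wild-type arrays. Every ATLO array lay above every other array. The log2 change was 1.95 ± 0.19 in ATLO against outside-lesion adventitia (3.86-fold, adjusted p = 2.13e-05 by limma) and 1.82 ± 0.21 against wild type (3.53-fold, adjusted p = 0.000127).

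Both other H2-Ab1 probe sets separated ATLO in the same way and gave larger changes. On 1425477_x_at the signals were 1978, 3045, 2986 and 2536 in ATLO, 319.6, 234, 139 and 402.5 outside the lesion, and 274.5, 439 and 396 in wild type. Its log2 change was 3.35 ± 0.28 against outside-lesion adventitia (10.2-fold, adjusted p = 1.15e-05 by limma) and 2.84 ± 0.31 against wild type (adjusted p = 8.61e-05). On 1451721_a_at the log2 changes were 2.67 ± 0.26 (adjusted p = 1.87e-05) and 2.36 ± 0.28 (adjusted p = 0.000137). The probe sets of this gene therefore agreed on direction but spanned a range of 1.95 to 3.35 in the size of the change against outside-lesion adventitia.

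H2-Eb1, the beta chain of I-E, was read at 20413, 12569, 23569 and 18019.7 on the ATLO arrays. Its signals were 4916, 4999.6, 3015 and 5414 on the outside-lesion arrays and 3413, 6183 and 4689 on the wild-type arrays. Here too the lowest ATLO array was above the highest array of either other group. The gene rose by a log2 change of 2.02 ± 0.25 against outside-lesion adventitia (4.06-fold, adjusted p = 6.68e-05 by limma) and 1.97 ± 0.27 against wild type (3.93-fold, adjusted p = 0.000317).

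For H2-Aa, the alpha chain of I-A, the 2 probe sets disagreed. The probe set 1452431_s_at was read at 8106, 7637.5, 6316 and 7179 in ATLO, 1442.5, 1638, 841 and 2019.6 outside the lesion, and 1131, 2169 and 1735 in wild type. Its groups did not overlap with ATLO, and it rose by a log2 change of 2.36 ± 0.25 against outside-lesion adventitia (5.14-fold, adjusted p = 2.90e-05 by limma) and 2.17 ± 0.27 against wild type (4.49-fold, adjusted p = 0.000199). The probe set 1435290_x_at, which represents the gene in the counts by gene, did not separate the Apoe-deficient groups. Its signals were 27692, 11139, 22568 and 19479.8 in ATLO, 22363, 16715, 11761 and 16823 outside the lesion, and 10435, 9977 and 9807 in wild type.

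ATLO and outside-lesion arrays overlapped on this probe set over most of their range, with ATLO replicate 2 the lowest of the 8, whereas the 3 wild-type arrays lay together below all of them. The log2 change was 0.22 ± 0.27 in ATLO against outside-lesion adventitia (95% interval -0.36 to 0.80, adjusted p = 0.573 by limma) and 0.93 ± 0.29 against wild type (adjusted p = 0.0302). The call against wild type was lost without ATLO replicate 1, 3 or 4, without any 1 of the wild-type arrays, and with no filter on low signals (adjusted p up to 0.0864). With both H2-Aa probe sets averaged, the log2 change against outside-lesion adventitia was 1.29 (adjusted p = 0.000585). In the manufacturer's naming, an x marks a probe set some of whose probes also match other sequences and an s one whose probes match several transcripts; whether this bears on the disagreement was not tested.

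**Figure D2:**
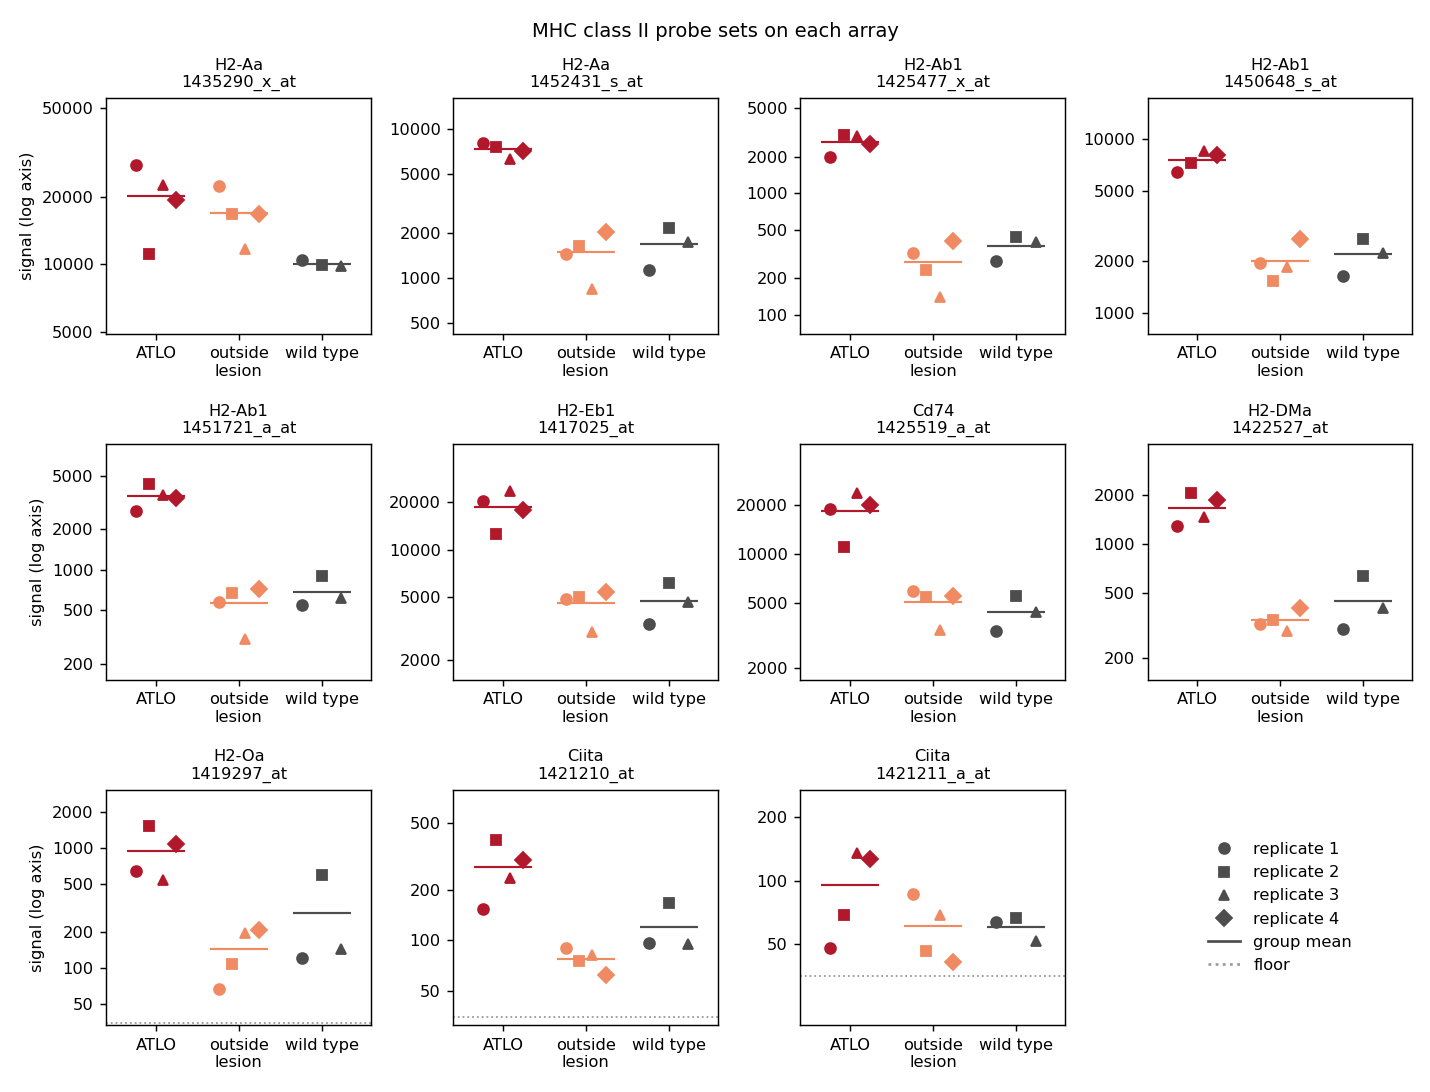
Signal (log axis) of the 11 class II probe sets on each array, with ATLO on the left, outside-lesion in the middle and wild type on the right of each panel; shapes are replicates, lines are group means and the dotted line is the floor of 35.1. ATLO arrays lie above all others on most panels, H2-Aa 1435290_x_at and Ciita 1421211_a_at being the main exceptions.

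Cd74, the invariant chain that guides class II molecules to the endosome, had signals of 19017, 11150.2, 23934 and 20244 on the ATLO arrays. Outside the lesion it was read at 5942.5, 5500, 3419.7 and 5583.5, and in wild type at 3409, 5543 and 4437. ATLO did not overlap with either other group. The log2 change was 1.84 ± 0.26 against outside-lesion adventitia (3.58-fold, adjusted p = 0.000140 by limma) and 2.03 ± 0.28 against wild type (4.09-fold, adjusted p = 0.000304).

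H2-DMa, the alpha chain of the peptide exchange catalyst H2-DM, was read at 1292, 2071, 1461 and 1869.5 in ATLO, 321.5, 339.5, 292 and 403 outside the lesion, and 300.2, 637 and 403.5 in wild type. All 4 ATLO arrays were above the 7 others. The rise amounted to a log2 change of 2.29 ± 0.23 against outside-lesion adventitia (4.88-fold, adjusted p = 1.95e-05 by limma) and 1.95 ± 0.24 against wild type (3.86-fold, adjusted p = 0.000184). Outside-lesion arrays varied little, between 292 and 403, while ATLO arrays ranged from 1292 to 2071.

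H2-Oa, the alpha chain of H2-O, the inhibitor of H2-DM, had the largest standard errors of the tested members. Its signals were 649, 1554, 549.8 and 1093 in ATLO, 66.4, 109, 197 and 209 outside the lesion, and 122, 599 and 145 in wild type. ATLO lay above all outside-lesion arrays, but wild-type replicate 2, at 599, was above ATLO replicate 3. The log2 change was 2.75 ± 0.51 against outside-lesion adventitia (6.72-fold, adjusted p = 0.00112 by limma) and 2.01 ± 0.55 against wild type (4.02-fold, adjusted p = 0.0167). Against wild type the call was lost without wild-type replicate 1 (1.58, adjusted p = 0.0816), without wild-type replicate 3 (1.71, adjusted p = 0.0762) and with no filter on low signals (adjusted p = 0.0687), and the change was 2.73 without wild-type replicate 2.

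Ciita, the transactivator of the set, was read by 2 probe sets. Its tested probe set, 1421210_at, was read at 154, 398, 235 and 304 in ATLO, 89.8, 75.1, 81.9 and 62.2 outside the lesion, and 96.4, 168 and 95 in wild type. ATLO was above all outside-lesion arrays but overlapped with wild type through wild-type replicate 2. The log2 change was 1.75 ± 0.31 against outside-lesion adventitia (3.36-fold, adjusted p = 0.000803 by limma) and 1.16 ± 0.33 against wild type (2.23-fold, adjusted p = 0.0214). Against wild type it lost the call without ATLO replicate 2 (0.95) or 4 (1.08) or wild-type replicate 1 (1.03) or 3 (1.02), with adjusted p between 0.0579 and 0.0848. A second Ciita probe set, 1421211_a_at, did not pass the filter and was not tested, with signals of 47.6, 68.8, 136 and 127 in ATLO, 86.5, 46.4, 68.8 and 40.9 outside the lesion and 63.6, 66.3 and 51.3 in wild type.

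Counted over arrays, all ATLO arrays exceeded all outside-lesion arrays on 9 of the 10 tested member probe sets, as on 17.2% of all tested probe sets. All ATLO arrays exceeded all wild-type arrays on 8 of 10, as on 17.3% of all. The 9 calls against outside-lesion adventitia were kept under every alternative processing that tested the probe set and with each array left out, with adjusted p of at most 0.0395, which H2-Oa reached with the actin ratio as a covariate; Ciita did not pass the strictest filter and was not tested there. Of the 10 calls against wild type, 7 were kept under all of these, and H2-Aa 1435290_x_at, H2-Oa and Ciita each lost theirs under some, as given above.

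In outside-lesion adventitia against wild type no member was called in either direction. H2-Aa 1435290_x_at had a log2 change of 0.71 ± 0.29 (95% interval 0.09 to 1.33, adjusted p = 0.171 by limma), and all 4 outside-lesion arrays lay above the 3 wild-type arrays, as on 8.15% of all tested probe sets. Ciita had a log2 change of -0.59 ± 0.33 (95% interval -1.31 to 0.13, adjusted p = 0.304). For H2-Oa the log2 change was -0.74 ± 0.55 (95% interval -1.93 to 0.44, adjusted p = 0.435), and it was -0.019 without wild-type replicate 2. The other 7 tested probe sets had log2 changes between -0.51 and 0.19, and the interval of each included 0. Equal levels in both groups are not shown by this.

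Within ATLO the members did not share 1 order of the arrays. ATLO replicate 2 was the lowest ATLO array for H2-Aa 1435290_x_at, Cd74 and H2-Eb1, at 11139, 11150.2 and 12569, but the highest for H2-DMa, H2-Oa and Ciita, at 2071, 1554 and 398. The same array had the lowest macrophage and the highest B cell marker signal in its group. Summed over 10 macrophage markers the signals were 74643, 47832, 69029 and 54665 on ATLO arrays 1 to 4, and summed over 8 B cell markers they were 7779.5, 18344, 5748 and 11420.4. The array stood at the end of its group for other cell types too. It had the lowest adipocyte, smooth muscle and fibroblast sums (23733, 10701 and 32788) and the highest T cell and lymph node stroma sums (4763 and 9643). The lymph node stroma sum includes Fcer2a and Cr2, which are also counted in the B cell sum. It also had the lowest 3' over 5' ratio of the actin control, a measure that is larger in degraded RNA, at 1.71 against 3.58 to 8.14 on the other ATLO arrays. The order of the ATLO arrays by H2-Oa (2, 4, 1, 3) was the order by the B cell and T cell sums and, from low to high, by the actin ratio. Their order by H2-Aa 1435290_x_at (1, 3, 4, 2) was the order by the macrophage, adipocyte and smooth muscle sums. The orders of the members were thus shared with markers of cells that carry class II and of cells that do not. These are descriptions of 4 arrays, and the part of cell composition and RNA quality in them was not tested.

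Wild-type replicate 2 was the highest of its group on 10 of the 11 member probe sets, with H2-Oa at 599 against 122 and 145 on the others. It also had the highest B cell sum, 6229 against 1178 and 853, and the highest T cell sum, 1055 against 453 and 594, and the lowest actin ratio of its group, 4.19 against 5.35 and 5.40. The dendritic cell sums of the wild-type arrays were close, between 1799.8 and 1981. Outside the lesion, replicate 3 was the lowest array for H2-Eb1, Cd74, H2-DMa and both H2-Aa probe sets, and had the lowest macrophage sum, 17981 against 27429 to 33376. That array also had the lowest T cell, fibroblast and smooth muscle sums of its group (367, 20689 and 18272) and its highest actin ratio, 11.99 against 6.22 to 10.2.

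**Figure D3:**
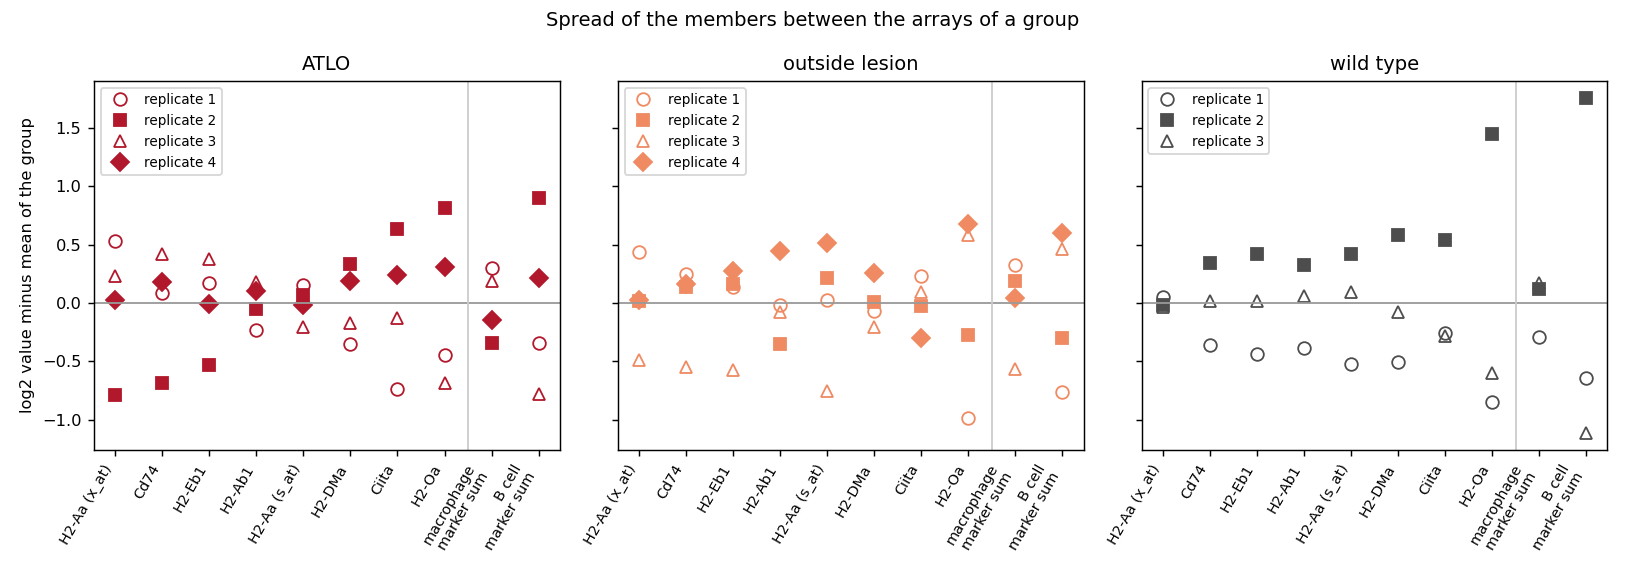
Log2 value minus the mean of the group (y axis) of 8 member probe sets and 2 marker sums on each array, in ATLO, outside-lesion and wild-type adventitia; shapes are replicates. ATLO replicate 2 (squares) is lowest for H2-Aa 1435290_x_at, Cd74, H2-Eb1 and the macrophage sum and highest for H2-DMa, Ciita, H2-Oa and the B cell sum, and wild-type replicate 2 is highest for H2-Oa and the B cell sum. For H2-Ab1 and H2-Aa 1452431_s_at, ATLO replicate 2 lies between the other ATLO arrays.

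Differences in the size of the change were tested for pairs of members with linked roles, as the difference of their log2 signals within each array. H2-Oa minus H2-DMa, the inhibitor against its target, was -0.90 ± 0.42 in ATLO, -1.36 ± 0.76 outside the lesion and -0.95 ± 0.75 in wild type (SD, n = 4, 4 and 3). The difference between ATLO and outside-lesion arrays was 0.46 (exact two-sided permutation test, p = 0.343), and between ATLO and wild-type arrays 0.056 (exact permutation p = 0.914). Both differences were smaller than the SD among the arrays they were set against.

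Cd74 minus H2-Ab1, the invariant chain against its client, differed by -0.11 between ATLO and outside-lesion arrays (exact permutation p = 0.743) and by 0.21 between ATLO and wild type (exact permutation p = 0.486). Ciita minus H2-Ab1, the regulator against its target, differed by -0.20 (exact permutation p = 0.629) and by -0.66 (exact permutation p = 0.114). Outside-lesion against wild-type arrays gave -0.40, 0.32 and -0.47 for the 3 pairs. The adjusted p lay between 0.771 and 0.914 by Benjamini-Hochberg over the 9 tests. With 0.0286 as the smallest unadjusted p that 35 splits allow, a single pair could not pass after this adjustment, so the adjusted values say nothing about any one pair.

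Likeness over the 11 arrays was described by Pearson's r on log2 signals against 9048 genes outside the set, with no p, since arrays of a group share their tissue and group differences enter every r. The mean of H2-Aa, H2-Ab1, H2-Eb1 and Cd74 was most like Ctss, the protease that trims the invariant chain (r = 0.982), followed by Pirb (0.974), Serpina3n (0.971), the complement gene C1qb (0.971) and Laptm5 (0.965). With 1452431_s_at in place of the representing H2-Aa probe set, a change made after seeing the data, Pirb (0.991) and Ctss (0.985) led, followed by Prcp, Klrb1b and Otulinl. H2-Oa, which took the place of H2-Ob after its values were seen, was most like Lrmp (0.993), the BAFF receptor Tnfrsf13c (0.983), the B cell lectin Cd22 (0.983), Trim59 (0.981) and Bcl11a (0.978). For Ciita, added in the same way, the leading genes were Ddx39a (0.976), Ankrd44 (0.975), Jmjd1c (0.971), Crlf3 (0.968) and Arid1a (0.966).

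Among the members, Cd74 and H2-Eb1 were the most alike pair of different genes (r = 0.991). H2-Aa 1435290_x_at stood apart, with r between 0.0692 and 0.680 against the other 9 tested member probe sets. H2-Oa had r of 0.925 with H2-DMa and 0.714 with Cd74.

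Other genes of the pathway rose in ATLO in part. Over all genes, 19.8% rose in ATLO against outside-lesion adventitia and 13.4% against wild type, the shares for comparison with each list. Of 16 tested regulators of class II transcription and interferon signalling, 9 rose and 0 fell in ATLO against outside-lesion adventitia (median log2 change 0.78), and 7 rose and 0 fell against wild type (0.64). These counts use the representing probe set of each gene, and further probe sets differed for some. Against outside-lesion adventitia, that of Ifngr2 was called higher (1.61), and those of Nfya (-0.43) and Irf4 (0.77) were not called. Against wild type, that of Nfya was called lower (-1.23) and that of Jak1 higher (0.74), and that of Jak2 (0.74) was not called. Irf8, a transcription factor of B cells and myeloid cells, rose the most, with 1809 ± 450.0 in ATLO, 284 ± 84.9 outside the lesion and 411 ± 239 in wild type (SD, n = 4, 4 and 3). Its log2 change was 2.69 ± 0.31 against outside-lesion adventitia (adjusted p = 4.43e-05 by limma) and 2.25 ± 0.34 against wild type (adjusted p = 0.000529), and a second Irf8 probe set gave 1.68 and 1.69. Rfx5, a subunit of the factor that binds the X box, was chosen after its values were seen and had a smaller log2 change of 0.78 ± 0.20 against outside-lesion adventitia (adjusted p = 0.00888). The other subunits on the list, Rfxap (0.40, adjusted p = 0.189 by limma) and Rfxank (0.23, adjusted p = 0.664), were not called there. A further Rfxank probe set, at -0.39, was not called either.

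Among 11 genes of endosomal proteolysis, 7 rose and 0 fell in ATLO against outside-lesion adventitia (median log2 change 1.14), and 6 rose and 0 fell against wild type (0.67). Ctsb and Ctsz were not called against outside-lesion adventitia by their representing probe sets. Further probe sets were called higher there, with log2 changes of 0.93 and 0.48 for Ctsb and 0.53 and 0.49 for Ctsz. Another Ctsb probe set, at 0.10, was not called, nor were further probe sets of the called gene Sppl2a, at 0.29 and 0.23. Napsa, an aspartic protease, rose the most, with 1150.2 ± 372 in ATLO, 112 ± 36.2 outside the lesion and 148 ± 159 in wild type (SD, n = 4, 4 and 3). It changed by 3.36 ± 0.49 on the log2 scale against outside-lesion adventitia (adjusted p = 0.000207 by limma) and by 3.48 ± 0.53 against wild type (adjusted p = 0.000627). Ctss, named above for its likeness, rose to 13538 in ATLO against 2631 outside the lesion and 2637 in wild type, a log2 change of 2.33 ± 0.26 against outside-lesion adventitia (adjusted p = 3.42e-05).

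All 4 tested genes of class II turnover and costimulation rose in ATLO against outside-lesion adventitia (median log2 change 1.69), and 3 of 4 rose against wild type (0.89). Cd83, which protects class II molecules from ubiquitin-driven degradation, had the largest rise against outside-lesion adventitia among the probe sets that represent these genes. It was read at 901 ± 379 in ATLO, 222 ± 23.0 outside the lesion and 451 ± 251 in wild type (SD, n = 4, 4 and 3), a log2 change of 1.94 ± 0.31 against outside-lesion adventitia (adjusted p = 0.000372 by limma) and 1.05 ± 0.33 against wild type (adjusted p = 0.0334), where the arrays overlapped. Further probe sets of Cd40 and Cd86, costimulatory molecules of antigen-presenting cells, gave changes of 2.26 and 1.94 against outside-lesion adventitia. Against wild type Cd40 rose more than Cd83, by 2.07 on the log2 scale. In outside-lesion adventitia against wild type, 0 genes of these 3 lists rose and 1, of endosomal proteolysis, fell by their representing probe sets. Over all genes, 1.4% rose and 1.68% fell there. A further probe set of Ctsz was called higher in that comparison (log2 change 0.60, adjusted p = 0.0497 by limma).

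**Figure D4:**
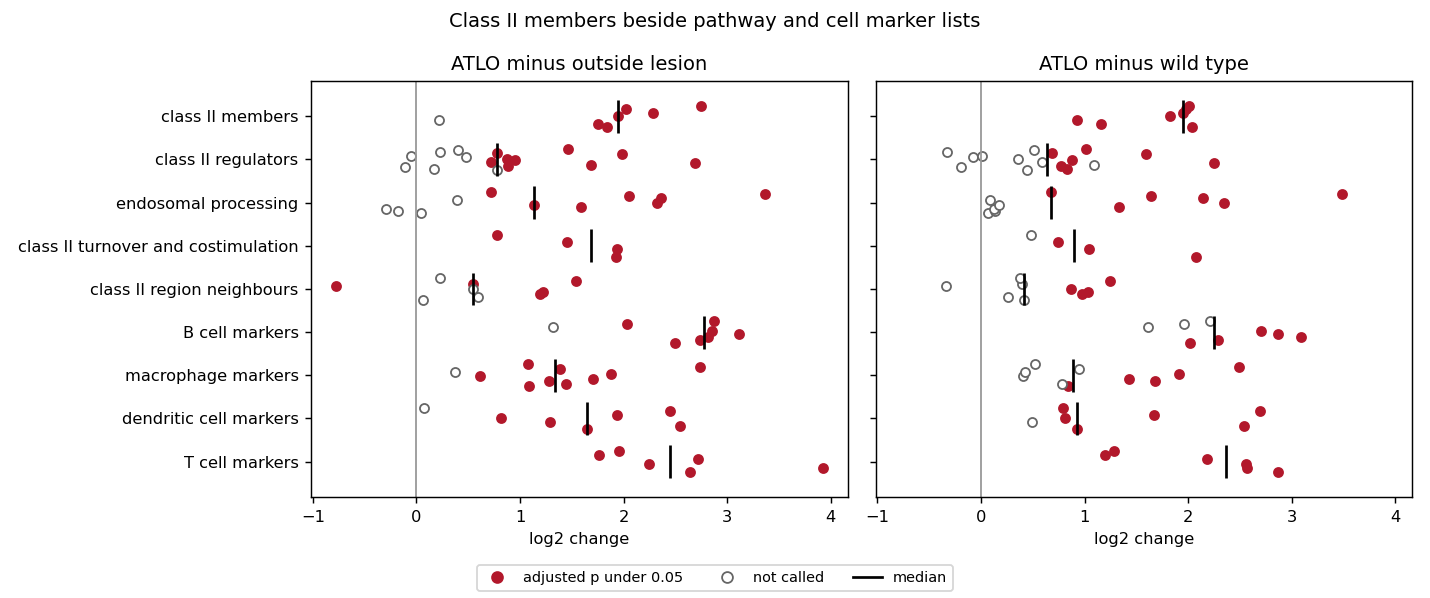
Log2 change (x axis) of the 7 class II members and of the genes of 4 pathway lists and 4 leukocyte marker lists, in ATLO against outside-lesion adventitia (left) and against wild type (right); filled points passed an adjusted p of 0.05 and bars are medians. The member median is 1.95 in both panels, beside B cell marker medians of 2.78 and 2.25 and macrophage marker medians of 1.33 and 0.89.

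Most members lie together on chromosome 17, with Ciita on chromosome 16 and Cd74 on chromosome 18, and the members were set against their neighbours in the class II region. In order along the chromosome, the class I antigen processing genes Psmb9, Tap1, Psmb8 and Tap2 lie between H2-DMb1 and H2-Ob. Tap1, a subunit of the peptide transporter into the endoplasmic reticulum, had the largest rise of the neighbours, with 1511 ± 239.6 in ATLO, 515 ± 59.6 outside the lesion and 635 ± 77.6 in wild type (SD, n = 4, 4 and 3). Its log2 change was 1.54 ± 0.15 against outside-lesion adventitia (adjusted p = 1.99e-05 by limma) and 1.24 ± 0.17 against wild type (adjusted p = 0.000271). Psmb9 and Psmb8, subunits of the immunoproteasome, rose by 1.22 and 1.19 on the log2 scale against outside-lesion adventitia. Tap2, the other subunit of the transporter, was not called there (log2 change 0.23 ± 0.23, adjusted p = 0.486 by limma).

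Of 9 tested neighbours, 4 rose and 1 fell against outside-lesion adventitia (median log2 change 0.55), where 19.8% of all genes rose and 14.9% fell. Against wild type 4 rose and 0 fell (0.41), where 13.4% of all genes rose and 14% fell. The gene that fell was Rxrb, the retinoid X receptor beta, at 437 ± 78.3 in ATLO against 785 ± 308 outside the lesion (SD, n = 4 each; log2 change -0.78 ± 0.26, adjusted p = 0.0372 by limma), with overlap between the arrays. Brd2, the bromodomain gene between H2-Oa and H2-DMa, was not called (0.064 on the log2 scale, adjusted p = 0.821) and was chosen after its values were seen. H2-Oa, at 2.75, and H2-DMa, at 2.29, thus lay on either side of a gene with no called change. H2-DMb2, a beta chain of H2-DM that follows H2-DMa along the chromosome, was also named after its values were seen. It was not called against outside-lesion adventitia (0.59, adjusted p = 0.268 by limma) or against wild type (0.26, adjusted p = 0.677).

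**Figure D5:**
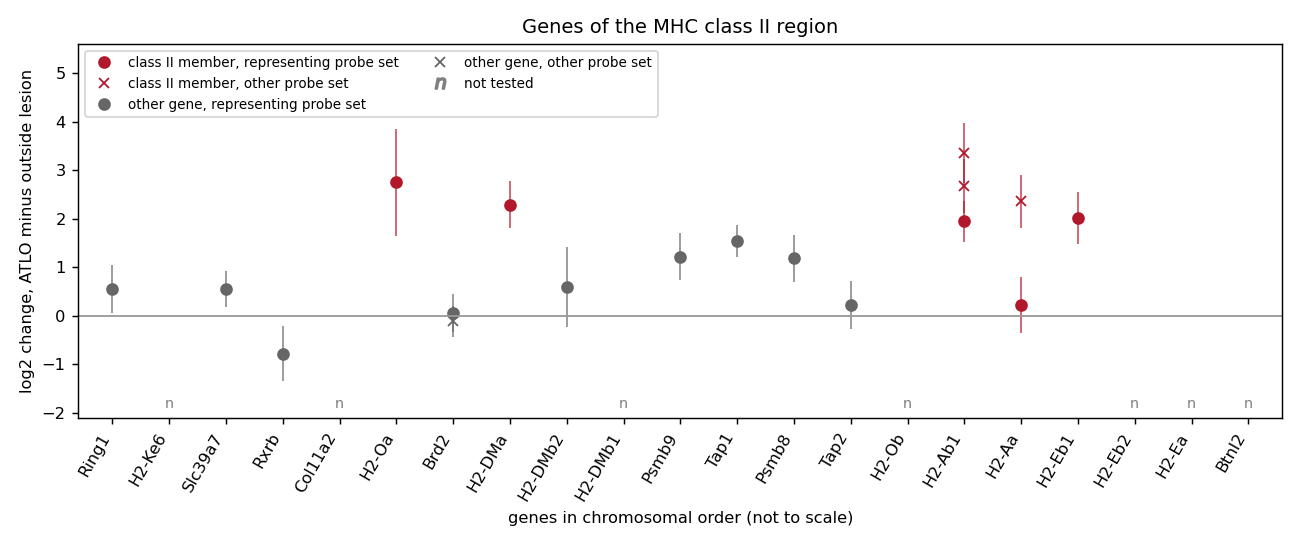
Log2 change in ATLO against outside-lesion adventitia (y axis, 95% intervals) of the genes of the class II region in chromosomal order, not to scale; class II members are red, other genes grey, crosses are further probe sets and n marks genes not tested. H2-Oa at 2.75 and H2-DMa at 2.29 stand on either side of Brd2 at 0.064, and Psmb9, Tap1 and Psmb8 lie between 1.19 and 1.54, with Tap2 at 0.23 and not called.

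Leukocyte markers rose in ATLO along with the members, both those of B cells, macrophages and dendritic cells, which carry class II, and those of T cells. In ATLO against outside-lesion adventitia, 7 of 8 B cell markers, 9 of 10 macrophage markers, 6 of 7 dendritic cell markers and 6 of 6 T cell markers rose. Against wild type the counts were 5 of 8, 5 of 10, 6 of 7 and 6 of 6. Over all genes, 19.8% rose against outside-lesion adventitia and 13.4% against wild type. The B cell sum lay between 5748 and 18344 in ATLO, 899 and 2304.5 outside the lesion, and 853 and 6229 in wild type, so ATLO overlapped with wild type. The macrophage sum lay between 47832 and 74643 in ATLO, 17981 and 33376 outside the lesion, and 24217 and 33262 in wild type. Dendritic cell sums were 3457 to 5219.6 in ATLO, 1600.2 to 2013 outside the lesion and 1799.8 to 1981 in wild type. T cell sums were 2113.5 to 4763 in ATLO, 367 to 522 outside the lesion and 453 to 1055 in wild type. No marker of these 4 lists was at the floor on any ATLO array. On outside-lesion arrays up to 1 of 8 B cell markers, 2 of 7 dendritic cell markers and 2 of 6 T cell markers were. On wild-type arrays up to 1 of 8 B cell markers was at the floor, and 1 of 7 dendritic cell markers on each array. Lymph node stroma and venule markers rose in 2 of 5 against outside-lesion adventitia and 1 of 5 against wild type, with sums of 5994 to 9643 in ATLO, 2044 to 2760.5 outside the lesion and 2334 to 4763 in wild type. This list shares Fcer2a and Cr2 with the B cell list. The 2 that rose against outside-lesion adventitia were Cxcl13 and Fcer2a, and the 1 against wild type was Cxcl13.

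Among markers of other cell types, 5 of 6 adipocyte, 3 of 6 endothelial and 1 of 5 smooth muscle markers fell in ATLO against outside-lesion adventitia, where 14.9% of all genes fell. Against wild type 3 of 6, 2 of 6 and 4 of 5 fell, where 14% of all genes fell. Fibroblast markers were mixed, with 3 of 7 higher against outside-lesion adventitia, and 2 of 7 higher and 1 lower against wild type. RNA quality was read from the actin ratio, which was 4.99, 1.71, 8.14 and 3.58 on ATLO arrays, 10.2, 6.22, 11.99 and 6.47 on outside-lesion arrays, and 5.35, 4.19 and 5.40 on wild-type arrays. Its differences did not pass an exact two-sided permutation test (p = 0.114 between ATLO and outside-lesion arrays, 0.8 between ATLO and wild-type arrays, 0.0857 between outside-lesion and wild-type arrays). With this ratio as a covariate, the same 6 and 7 member genes were called in ATLO against outside-lesion adventitia and against wild type. The part of cell composition in the rise of the members was not tested.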

How the data were processed

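The authors deposited 1 linear intensity per probe set and array for 11 arrays, made with GCOS 1.4, per the submitters' processing notes; the sources used here do not give the summary method. The authors' trimmed mean (2% at each end) was 500.168 to 500.266 on every array, and array medians lay between 151.5 and 191. Of 22690 probe sets, 64 controls were left out. The platform annotation gave 20380 probe sets 1 gene symbol, 691 several and 1555 none. Precision is limited by the number of arrays. No pair of arrays was identical.

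Values under 35.1, the 20th percentile, were set to it before the log2 step, which understates changes near the floor. Probe sets with at least 3 arrays above their own 40th percentile were tested (14988). The linear model had 1 mean for each group and used limma 3.58.1 (R 4.3.3, intensity trend) on all 11 arrays, was tested on simulated data, and had Benjamini-Hochberg adjustment and a threshold of 0.05. Each of 9055 genes was represented by its probe set of highest mean. Differences between 2 members were tested by exact permutation. The planned pair of H2-Ob with H2-Oa and the likeness of H2-Ob could not be run, because H2-Ob had no probe set of its own.

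Equal array medians moved the median change of all probe sets from 0.10 to -0.015 in ATLO against outside-lesion adventitia and from -0.11 to 0.058 in outside-lesion adventitia against wild type, with smaller moves in ATLO against wild type.

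Named were all members and, of each pathway list, the called gene with the largest rise and with the largest fall in ATLO against outside-lesion adventitia, with H2-Ea, Apoe and the 5 most alike genes. The members and lists were chosen with earlier results of these data known. Promoters and their coordinates (GRCm38.p6) come from RefSeq, and the motif letters were chosen after seeing them. Alternatives were other scalings, floors and filters, only the compared groups, a replicate block, array weights, no trend, the actin ratio as a covariate, averaged probe sets and each array left out.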

Additional observations from a re-analysis of the deposited data

How the results depend on the processing

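All tested calls of members in ATLO against outside-lesion adventitia kept direction and side of the threshold, and 1 was gained, for H2-Aa with its probe sets averaged (1.29). Member genes called there numbered 6 with any array left out and 5 with the strictest filter (at least 4 arrays above their own 60th percentile), which Ciita did not pass. In ATLO against wild type they numbered 4 to 7 with an array left out, the 4 arising without wild-type replicate 1 or 3, where H2-Aa, H2-Oa and Ciita were lost; the cause was not tested. With no filter on low signals, where more probe sets are tested, 5 remained. In outside-lesion adventitia against wild type they numbered 0 throughout.

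Probe sets called in ATLO against outside-lesion adventitia (4777) numbered 2552 with the actin ratio as a covariate and 3962 to 4690 with an array left out, and in ATLO against wild type (4012) 2732 to 4228. In outside-lesion adventitia against wild type (489) they numbered 301 with no filter, 202 with only those groups in the fit, 1530 with array weights, 248 with no intensity trend and 86 with the actin covariate, and 21 (without wild-type replicate 2) to 887 (without outside-lesion replicate 2). The share of calls that were higher was 56.3% in ATLO against outside-lesion adventitia and 44.1% with equal array medians. In outside-lesion adventitia against wild type it was 52.8%, with 67.9% under quantile normalization and 87.3% with equal medians.

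Deviations of same-numbered arrays correlated between -0.178 and 0.273 over 10 pairs of arrays. Without such values for differently numbered arrays, this cannot decide whether the replicate numbers pair the arrays. With the replicate number as a block, 4744, 3819 and 189 probe sets and 6, 7 and 0 member genes were called in the 3 comparisons, and no member lost or gained its call.

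Signs turned for uncalled values alone. In outside-lesion adventitia against wild type, H2-Ab1 1450648_s_at was 0.048 and H2-Eb1 0.13 with equal medians, and H2-Aa 1452431_s_at was 0.037 with the actin covariate. With 1 array left out they lay between -0.32 and 0.038, between -0.27 and 0.16, and between -0.45 and 0.055. The difference H2-Oa minus H2-DMa lay between -0.20 and 0.49 in ATLO against wild type and between -0.67 and 0.028 in outside-lesion adventitia against wild type, and Cd74 minus H2-Ab1 between -0.26 and 0.10 in ATLO against outside-lesion adventitia. The number of arrays limits the precision.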

Other observations

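The spacing searched for between the X and Y cores, 15 to 30 bases, was wider than the 23 to 26 bases found in member promoters. Cores at the searched spacing also occurred upstream of 117 genes outside the set, of which 43 were tested. In ATLO against outside-lesion adventitia 11 of these rose and 13 fell (median log2 change 0.08), against 6 and 10 in ATLO against wild type (-0.05) and 1 and 1 in outside-lesion adventitia against wild type (-0.09). Over all 9055 genes represented, 19.8% rose and 14.9% fell in the first comparison, with a median of 0.11. In ATLO against wild type 13.4% rose and 14% fell (median -0.046). In outside-lesion adventitia against wild type 1.4% rose and 1.68% fell (median -0.115). A match of these letters is a description and not a binding site.

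Of 24 groups of member or actin values checked for a single array standing apart from the rest, none passed Dixon's criterion at the 95% level; groups of 3 arrays were not checked.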
